A study of Mus musculus with 9 samples.

Results

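The 10 genes described here encode parts of the machinery that displays peptides to T cells. They were listed by name, with earlier results of these data known. They were found by symbol in count tables that held 23337 genes. The class I genes, 6 of them, were the heavy chain genes H2-K1 and H2-D1, the transporter genes Tap1 and Tap2, the loading factor gene Tapbp and the regulator gene Nlrc5. The class II genes, 4 of them, were the chain genes H2-Aa, H2-Ab1 and H2-Eb1 and the invariant chain gene Cd74. All 10 passed the filter on low counts that left 12587 genes to test. RNA was sequenced from whole livers of wild-type mice taken in the fed state. Every mouse had been kept on its diet for 12 weeks from 8 weeks of age. The HFD_HDCA group ate a 60% high-fat diet containing 0.25% hyodeoxycholic acid (HDCA), a secondary bile acid. The HFD group ate the 60% high-fat diet alone, and the ND group ate a normal diet. Each group had 3 libraries, and strain and sex were not given in the sources used here. The labels give no statement that the libraries came from separate cages or litters, so p-values measure only the spread between these libraries.

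Class I molecules stand on nearly all nucleated cells. Peptides cut by the proteasome are pumped into the endoplasmic reticulum by the Tap1 and Tap2 transporter, and tapasin, the product of Tapbp, holds the empty heavy chain beside it until a peptide binds. Class II molecules are made mainly by dendritic cells, B cells and macrophages, where the invariant chain Cd74 guides them to endosomes and keeps their groove closed. Nlrc5 and Ciita are related proteins that switch on class I and class II genes, and interferon gamma raises both sets. In the liver the hepatocytes carry class I, while Kupffer cells, sinusoidal endothelium and dendritic cells can carry class II.

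The start regions of both classes are known to share a set of short elements, and the sequences below show how far a few of the members carry them. They come from RefSeq (GRCm38.p6, the assembly called mm10) and run from 250 bases before to 50 bases after the start site. A window was at hand for 6 members, and 5 are printed 5′ to 3′ on the strand of the gene. Capitals mark CCAAT or its reverse ATTGG, the pair of TGACG and a later ATTGG, AACNGATG (the X1 box core), GAANNGAAA or its reverse (a core of the interferon response element) and GGGATTCCC (an NF-kB core).
H2-K1, chr17:34000284-34000583, minus strand: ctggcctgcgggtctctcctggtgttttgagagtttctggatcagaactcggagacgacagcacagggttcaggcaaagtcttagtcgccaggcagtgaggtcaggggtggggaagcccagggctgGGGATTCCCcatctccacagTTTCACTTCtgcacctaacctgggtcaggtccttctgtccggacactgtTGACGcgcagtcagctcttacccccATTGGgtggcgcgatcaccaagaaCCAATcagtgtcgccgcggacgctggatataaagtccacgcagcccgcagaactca
H2-D1, chr17:35262844-35263143, plus strand: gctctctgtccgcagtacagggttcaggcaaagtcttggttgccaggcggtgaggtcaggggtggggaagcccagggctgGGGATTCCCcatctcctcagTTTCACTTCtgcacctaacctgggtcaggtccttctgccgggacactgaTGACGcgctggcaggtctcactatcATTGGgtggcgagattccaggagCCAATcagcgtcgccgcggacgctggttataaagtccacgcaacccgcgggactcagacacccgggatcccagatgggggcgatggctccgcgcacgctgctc
Tap1, chr17:34187306-34187605, plus strand: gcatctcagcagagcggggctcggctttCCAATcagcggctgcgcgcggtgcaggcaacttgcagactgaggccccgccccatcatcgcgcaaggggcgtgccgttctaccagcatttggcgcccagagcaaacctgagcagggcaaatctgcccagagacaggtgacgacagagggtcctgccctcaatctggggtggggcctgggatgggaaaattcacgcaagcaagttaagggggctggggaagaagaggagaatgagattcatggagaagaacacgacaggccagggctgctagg
H2-Aa, chr17:34287774-34288073, minus strand: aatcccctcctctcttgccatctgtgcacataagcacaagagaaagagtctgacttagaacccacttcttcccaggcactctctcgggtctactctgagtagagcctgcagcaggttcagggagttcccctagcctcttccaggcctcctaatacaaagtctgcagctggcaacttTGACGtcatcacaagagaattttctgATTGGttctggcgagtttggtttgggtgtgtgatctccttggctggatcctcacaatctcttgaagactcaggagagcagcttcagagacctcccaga
H2-Eb1, chr17:34305617-34305916, plus strand: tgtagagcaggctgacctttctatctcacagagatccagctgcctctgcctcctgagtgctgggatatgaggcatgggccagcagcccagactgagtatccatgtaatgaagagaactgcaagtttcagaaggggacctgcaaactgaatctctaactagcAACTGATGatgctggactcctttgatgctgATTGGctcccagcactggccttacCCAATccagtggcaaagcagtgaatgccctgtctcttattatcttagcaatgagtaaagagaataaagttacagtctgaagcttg

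Motifs were searched on both strands, their letters were chosen after these sequences had been read, and a match describes letters only. CCAAT stood in all 6 members with a window and in 41.1% of the 27025 genes with one. TGACG followed by ATTGG after 15 to 25 bases stood in H2-K1, H2-D1 and H2-Aa, and in 0.488% of the genes with a window. The gap was 20 bases in both heavy chain genes and 21 bases in H2-Aa. TGACG alone stood in 4 of the 6 members and in 23.05% of the genes with a window. The X1 core matched in H2-Eb1 and in 2.67% of the genes with a window. The interferon response core and the NF-kB core each matched in H2-K1 and H2-D1 and not in the other 4 members. They stood in 8.68% and 0.414% of the genes with a window, in that order. The Tap1 window overlapped that of the neighbouring proteasome gene Psmb9, which is read from the opposite strand at chr17:34187281-34187580.

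The libraries held 16994353 to 20509203 reads on genes, so that a count of 0 would have allowed a level of 0.152 to 0.182 CPM, for counting error only. CPM here are counts divided by the TMM-adjusted library size. Members lay far above this, with 200 reads for Nlrc5 in its lowest library and 18061 reads for H2-K1 in its lowest. The summed level of 4 hepatocyte markers was 97770 to 113140 CPM in HFD_HDCA, 92659 to 113550 CPM in HFD and 74497 to 83473 CPM in ND. A few libraries stood apart. HFD_HDCA 1 had 3371 CPM of the acute phase gene Saa1, against 23.4 and 38.02 CPM in the other HFD_HDCA libraries. HFD 1 had 85.8 CPM of the clock gene Dbp, against 2.27 and 1.41 CPM in the other HFD libraries. HFD 2 had the lowest macrophage and endothelial marker sums. Values without these libraries are given beside the results they move most.

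Tap1, which encodes one chain of the peptide transporter, was the single member of 10 that edgeR called in any comparison, where it called 6.47% of all genes in HFD_HDCA over ND, 3.40% in HFD_HDCA over HFD and 0.953% in HFD over ND. It rose in HFD_HDCA livers relative to ND livers, and its HFD values lay between. Tap1 had 32.5, 32.1 and 27.3 CPM in HFD_HDCA livers, 24.3, 27.98 and 22.7 CPM in HFD livers, and 19.8, 17.2 and 14.8 CPM in ND livers. Every library on a high-fat diet, with or without HDCA, was above every ND library. The log2 fold change of HFD_HDCA over ND was 0.83 ± 0.14 (SE, 95% interval 0.52 to 1.13), or 1.77-fold, with an adjusted p of 0.00868 in edgeR's quasi-likelihood test. That call held in all 17 alternative settings, where the adjusted p reached at most 0.0382. In HFD over ND the log2 fold change of Tap1 was 0.53 ± 0.14 with an adjusted p of 0.131, which missed the threshold of 0.05. DESeq2 put the adjusted p of that comparison at 0.0481. In HFD_HDCA over HFD it was 0.29 ± 0.14, with an adjusted p of 0.238 and overlapping libraries. The 3 comparisons share libraries and are not independent of each other.

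The partner chain gene Tap2 and the loading factor gene Tapbp did not pass the test in any comparison. Tap2 had 24.96, 27.5 and 20.7 CPM in HFD_HDCA livers, 23.9, 23.99 and 24.9 CPM in HFD livers, and 23.004, 20.8 and 22.4 CPM in ND livers. The HFD libraries were all above the ND libraries, but the log2 fold change was 0.14 ± 0.12 with an adjusted p of 0.730. For HFD_HDCA over ND, Tap2 had a log2 fold change of 0.14 (95% interval -0.12 to 0.40). Tapbp had 73.8, 62.1 and 61.2 CPM in HFD_HDCA livers, 64.1, 60.8 and 65.0 CPM in HFD livers, and 68.6, 69.5 and 54.4 CPM in ND livers. Its groups overlapped in every comparison, and the HFD_HDCA over ND interval ran from -0.24 to 0.31 on the log2 scale. Whether Tap1 differed from Tap2 in its response was not tested.

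Of the heavy chain genes, whose products form the peptide groove, H2-D1 had more CPM in each HFD_HDCA library than elsewhere. H2-K1 overlapped between all groups. H2-D1 had 731, 538 and 521 CPM in HFD_HDCA livers, 483, 454 and 496 CPM in HFD livers, and 470.5, 485 and 448 CPM in ND livers. In CPM the HFD_HDCA libraries did not overlap either other group, and HFD_HDCA 1 stood highest. In the authors' FPKM, which also scale reads by gene length, HFD_HDCA and HFD overlapped. There HFD_HDCA 3, at 245.76, lay below HFD 1, at 252.63, and HFD 3, at 258.65. Without TMM scaling HFD_HDCA 3, at 507.7 CPM, was also below both. The log2 fold change of H2-D1 was 0.32 ± 0.14 over HFD (adjusted p of 0.221, edgeR) and 0.35 ± 0.14 over ND (adjusted p of 0.153, edgeR), so neither passed the threshold. Without HFD_HDCA 1 these values were 0.16 and 0.18. H2-K1 had 1293, 1058 and 1087 CPM in HFD_HDCA livers, 1043, 1147 and 1184 CPM in HFD livers, and 1094.5, 1084 and 1073 CPM in ND livers. The log2 fold change of H2-K1 in HFD_HDCA over HFD was 0.03, and -0.06 without HFD_HDCA 1. Its 95% interval was -0.24 to 0.30 for HFD_HDCA over HFD and -0.22 to 0.33 for HFD over ND. HFD_HDCA 1 was again the highest library. Both genes have near-identical relatives. Of their 50-base transcript windows (GENCODE M21), 9.63% in H2-K1 and 12.8% in H2-D1 also occurred in other genes, with H2-Q10 sharing the most with H2-K1 and H2-Q1 the most with H2-D1. In the other 8 members the share was at most 2.87%. Sharing makes the counts of H2-K1 and H2-D1 less certain. By how much was not measured, since read length and strain were not given.

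Nlrc5, which encodes the regulator of class I transcription, overlapped between all 3 diets. It had 19.1, 14.2 and 16.4 CPM in HFD_HDCA livers, 30.1, 16.4 and 17.97 CPM in HFD livers, and 22.8, 15.9 and 11.6 CPM in ND livers. Library 1 was the highest of each group. The same libraries had the highest Dbp of their group, at 10.5 CPM in HFD_HDCA 1, 85.8 CPM in HFD 1 and 14.6 CPM in ND 1, and the part of this in the Nlrc5 values was not tested. The log2 fold change was -0.37 ± 0.28 for HFD_HDCA over HFD and 0.36 ± 0.28 for HFD over ND, and neither passed the test (adjusted p of 0.471 and 0.698, edgeR). Without HFD 1 these values were -0.05 and 0.03. Without ND 1 the value for HFD over ND was 0.64, and without ND 3 it was 0.15.

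**Figure D1:**
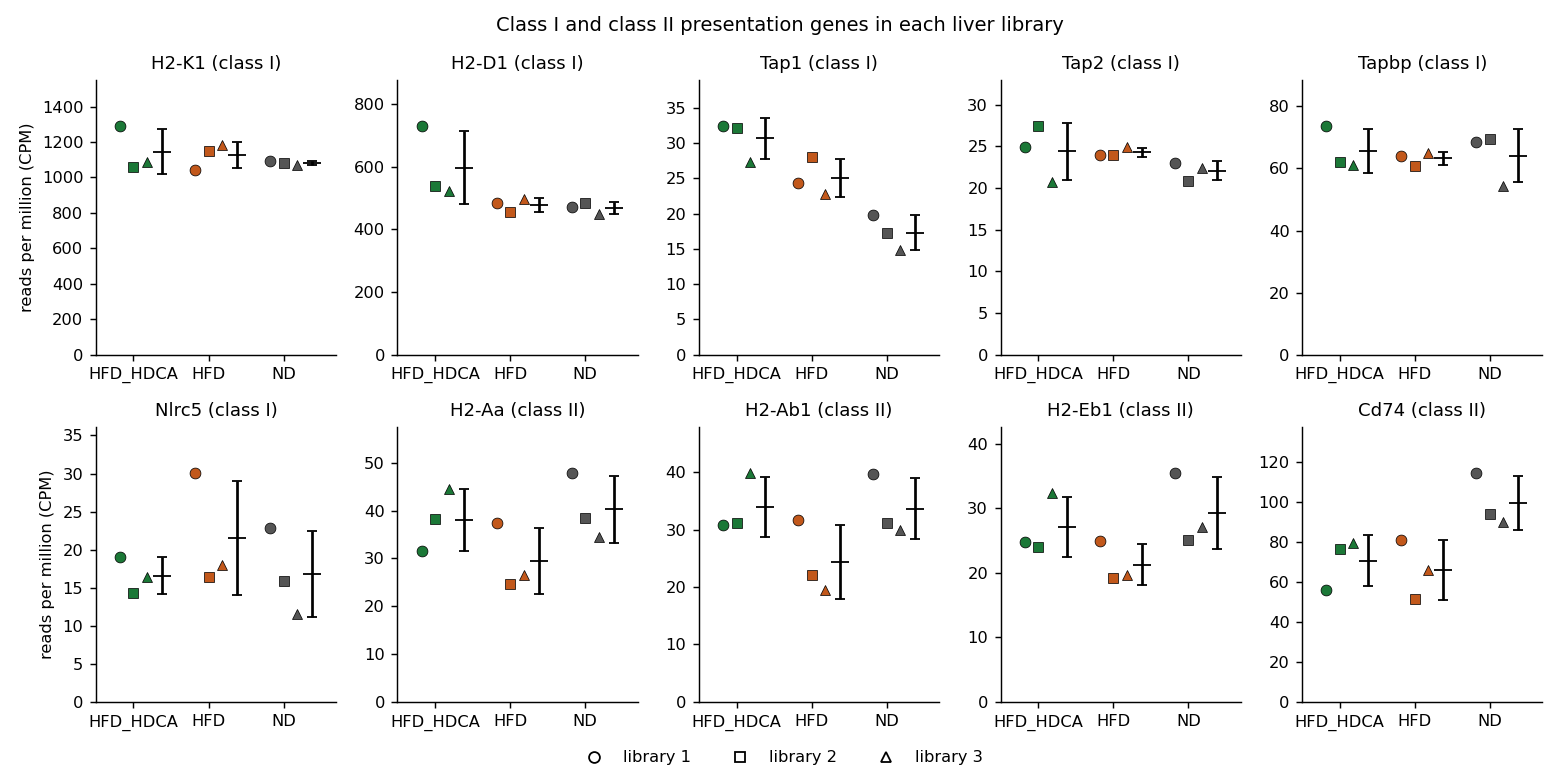
Level of each class I and class II gene in CPM (vertical axis from 0, a separate scale per panel) in the HFD_HDCA, HFD and ND libraries. Points are libraries 1 to 3, and the bar beside them is the mean with its SD (n = 3). The 3 ND libraries of Tap1, at 14.8 to 19.8 CPM, lie below all others, and Cd74 has all its ND libraries, at 90.1 to 114.8 CPM, above all others.

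No class II gene passed the test in any comparison by edgeR on all libraries. In CPM each of the 4 averaged lowest in HFD livers. Cd74, the invariant chain gene (chromosome 18, 60803849 to 60812652), had 56.2, 76.3 and 79.5 CPM in HFD_HDCA livers, 81.2, 51.3 and 65.8 CPM in HFD livers, and 114.8, 93.9 and 90.1 CPM in ND livers. All 6 libraries from high-fat diets were below all 3 ND libraries in CPM. In the authors' FPKM HFD 1, at 63.96, was above ND 3, at 60.79. There Cd74 averaged about the same in HFD livers, at 50.96, as in HFD_HDCA livers, at 50.22. The log2 fold change of Cd74 was -0.59 ± 0.19 for HFD over ND (unadjusted p of 0.00933, adjusted p of 0.229, edgeR). For HFD_HDCA over ND it was -0.49 ± 0.19 with an adjusted p of 0.127 in edgeR. Between HFD_HDCA and HFD the Cd74 libraries overlapped, and the 95% interval was -0.32 to 0.51.

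The chain genes, whose products pair to form the class II groove, overlapped between HFD_HDCA and ND livers, where Cd74 did not overlap. H2-Aa, the alpha chain of the A molecule, had 31.4, 38.2 and 44.5 CPM in HFD_HDCA livers, 37.3, 24.6 and 26.5 CPM in HFD livers, and 47.9, 38.4 and 34.4 CPM in ND livers. H2-Ab1, its beta chain, had 30.8, 31.1 and 39.95 CPM in HFD_HDCA livers, 31.7, 22.1 and 19.4 CPM in HFD livers, and 39.7, 31.2 and 29.96 CPM in ND livers. In both genes HFD 2 and HFD 3 were the lowest libraries, and HFD 1 lay among the libraries of the other diets. H2-Eb1, the beta chain of the E molecule, had 24.8, 23.9 and 32.4 CPM in HFD_HDCA livers, 24.9, 19.1 and 19.6 CPM in HFD livers, and 35.5, 25.04 and 27.1 CPM in ND livers. Its HFD libraries were all below its ND libraries. The log2 fold changes of HFD over ND were -0.45 for H2-Aa, -0.46 for H2-Ab1 and -0.46 for H2-Eb1, with adjusted p of 0.391, 0.383 and 0.325 in edgeR. For HFD_HDCA over HFD they were 0.37, 0.48 and 0.35, with adjusted p of 0.287, 0.185 and 0.265 in edgeR. For HFD_HDCA over ND they were -0.08, 0.01 and -0.11, and each interval included 0.

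When both HFD 1 and HFD_HDCA 1 were left out, which leaves 2 libraries in each of these groups, edgeR called Cd74 (log2 fold change -0.79, adjusted p of 0.0210), H2-Ab1 (-0.72, adjusted p of 0.0381) and H2-Aa (-0.68, adjusted p of 0.0381) in HFD over ND. In HFD_HDCA over HFD the same fit called H2-Ab1 (0.79, adjusted p of 0.0271) and H2-Aa (0.72, adjusted p of 0.0322). Over all genes that fit also called more than the 120 (0.953%) and 428 (3.40%) called from all libraries in these comparisons. Those shares are therefore not the background for the calls of this fit, whose own counts over all genes are in the last section. H2-Ab1 was also called in HFD_HDCA over HFD without HFD 1 alone (0.71, adjusted p of 0.0437). Over all 17 alternatives the adjusted p of Cd74 in HFD over ND ran from 0.0210 to 0.570. Its log2 fold change was negative in every one of them. In HFD_HDCA over HFD the log2 fold change of Cd74 ran from -0.06 to 0.43 over the same 17 alternatives.

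**Figure D2:**
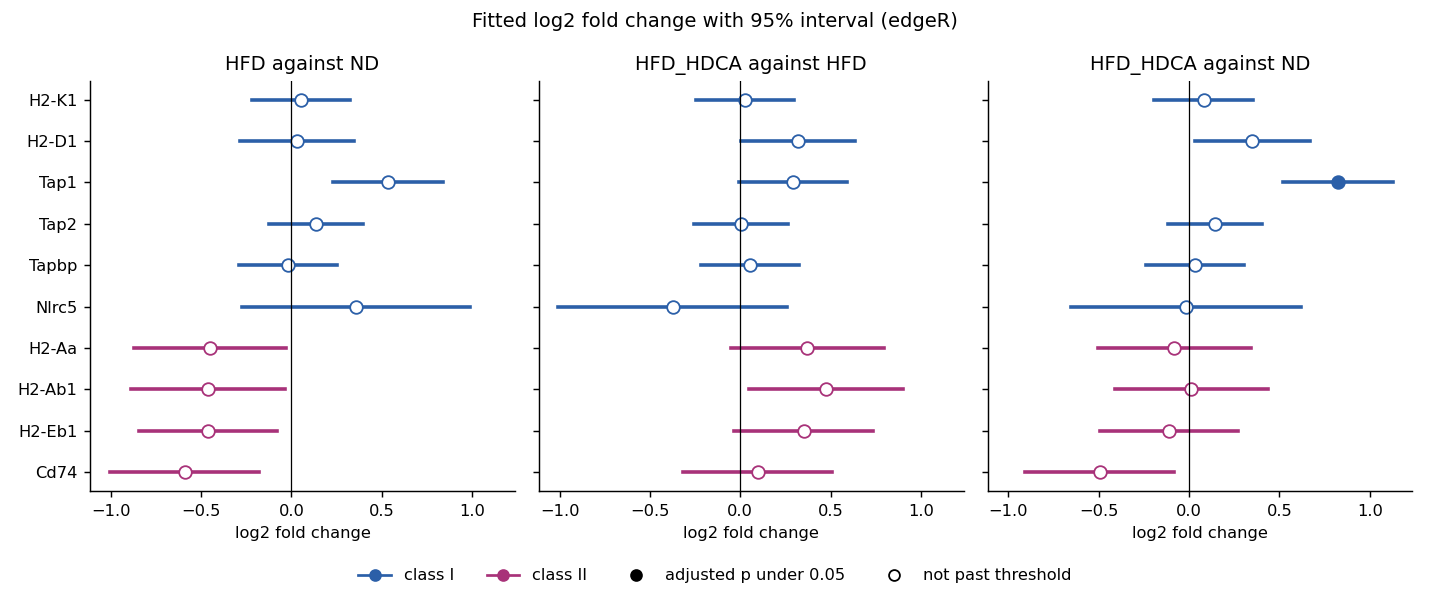
Fitted log2 fold change (horizontal axis) of the 10 members in the 3 comparisons, with 95% intervals from edgeR over 9 libraries, class I in blue and class II in purple. The filled point, Tap1 in HFD_HDCA over ND at 0.83, is the member past an adjusted p of 0.05, and all 4 class II points lie below 0 in HFD over ND.

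Counted over the members, edgeR called 0 of 10 in HFD over ND, 0 of 10 in HFD_HDCA over HFD and 1 of 10 in HFD_HDCA over ND. Of all genes tested it called 0.953%, 3.40% and 6.47% in the same comparisons. At an unadjusted p under 0.05 the HFD over ND comparison had 1 member higher (Tap1) and 4 lower (the class II genes), where 6.67% of all genes were higher and 4.83% lower. HFD_HDCA over HFD had 2 members higher (H2-D1 and H2-Ab1) and none lower, where 11.6% of all genes were higher and 10.4% lower. HFD_HDCA over ND had 2 higher (Tap1 and H2-D1) and 1 lower (Cd74), where 14.8% of all genes were higher and 11.4% lower. In TMM-scaled CPM the libraries did not overlap for 4 members in HFD over ND, 1 in HFD_HDCA over HFD and 3 in HFD_HDCA over ND. The shares of all genes were 20.1%, 22.4% and 33.9%. Some of these separations did not hold without TMM scaling or in the authors' FPKM. DESeq2 called 1 member in HFD over ND and 1 in HFD_HDCA over ND, which was Tap1 in both, and 0 in HFD_HDCA over HFD. In each comparison DESeq2 also called more of all genes than edgeR did, which bears on its counts for the lists below too. Its counts over all genes are in the last section.

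Set side by side, the median changes of the class I and class II genes had opposite signs in both comparisons with ND and the same sign in HFD_HDCA over HFD. In HFD over ND the median log2 fold change was 0.09 over the class I genes and -0.46 over the class II genes, with 0.02 over all genes. In HFD_HDCA over HFD it was 0.04 for class I, 0.36 for class II and -0.002 for all genes. In HFD_HDCA over ND it was 0.11 for class I, -0.10 for class II and 0.03 for all genes. Without HFD 1 the class II median was -0.68 in HFD over ND and 0.53 in HFD_HDCA over HFD, and without HFD 2 it was -0.40 and 0.27. Without HFD_HDCA 1 the class I median in HFD_HDCA over HFD was -0.01. Without ND 1 the class II median in HFD_HDCA over ND was 0.06. These are descriptions of 6 and 4 genes, and members of a class are not replicates. A score for each library, the mean log2 CPM of a class relative to the mean of each gene over all libraries, gave the difference of class II minus class I. It was -0.42, -0.03 and 0.31 in HFD_HDCA livers, -0.05, -0.48 and -0.42 in HFD livers, and 0.47, 0.24 and 0.38 in ND livers. All HFD libraries were below all ND libraries, while the HFD_HDCA libraries spread over most of the range of both. HFD_HDCA 1, the library with high Saa1, had the highest class I score and the lowest class II score of its group.

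**Figure D3:**
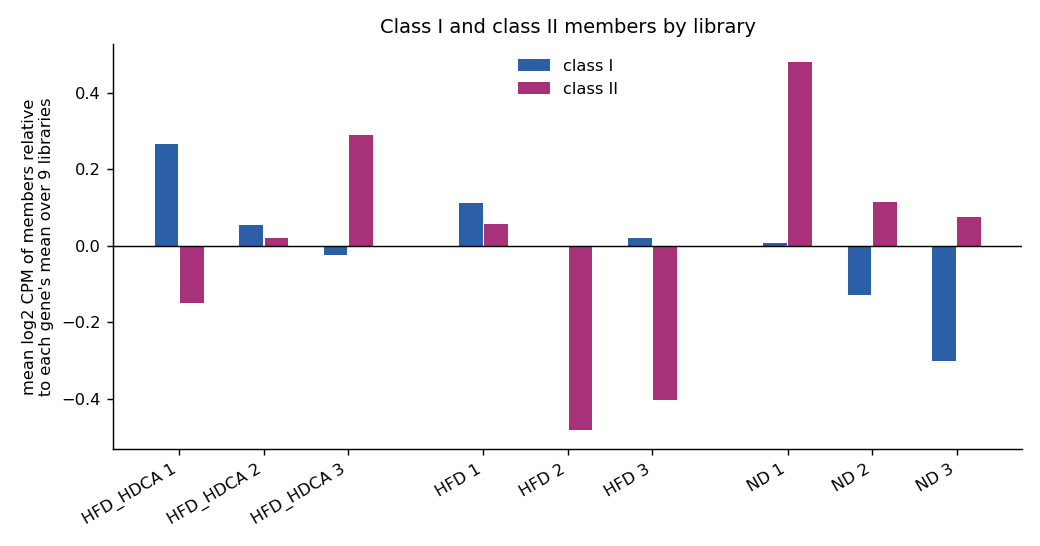
Mean log2 CPM of the class I (blue) and class II (purple) genes in each library, relative to the mean of each gene over the 9 libraries (vertical axis). Class II was at -0.48 and -0.40 in HFD 2 and HFD 3 and at 0.48 in ND 1, while class I lay between -0.30 and 0.27.

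Levels between genes can be compared per length, in the authors' FPKM. H2-K1 was the highest member in all 3 groups, at 541 ± 38.3 FPKM in HFD_HDCA livers, 574 ± 36.6 FPKM in HFD livers and 514 ± 17.4 FPKM in ND livers (SD, n = 3 each). H2-D1 came second, at 280.5 ± 44.9, 245 ± 18.3 and 222 ± 14.3 FPKM in HFD_HDCA, HFD and ND livers. Cd74 came next, at 50.2 ± 10.5, 51.0 ± 12.8 and 69.9 ± 10.3 FPKM in HFD_HDCA, HFD and ND livers. These 3 neighbours and H2-Aa below them had ranges that did not overlap in any group. H2-Aa overlapped H2-Ab1 in every group, and Tapbp overlapped H2-Ab1 in HFD livers and H2-Eb1 in ND livers. Tap1 averaged above Tap2 in HFD_HDCA livers, with overlapping ranges, and below it without overlap in HFD and ND livers. Nlrc5 was lowest throughout, at 1.65 ± 0.17, 2.28 ± 0.84 and 1.64 ± 0.56 FPKM in HFD_HDCA, HFD and ND livers. As a share of H2-K1, the FPKM of Cd74 was 6.52, 10.7 and 11.03% in HFD_HDCA livers, 11.7, 6.79 and 8.23% in HFD livers, and 15.6, 12.9 and 12.3% in ND livers. Every ND share was above every share from a high-fat diet.

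In whole liver, fewer cells of a type and less RNA per cell cannot be told apart, so markers of the cells that carry class II were set beside it. The summed level of the 4 class II genes was 143, 169.6 and 196 CPM in HFD_HDCA livers, 175, 117 and 131 CPM in HFD livers, and 238, 189 and 182 CPM in ND livers. The sum of 13 macrophage and Kupffer cell markers, all 13 tested, was 1063, 712 and 577 CPM in HFD_HDCA livers, 724, 237 and 1307 CPM in HFD livers, and 714, 765 and 651 CPM in ND livers. The class II sum was lowest in HFD 2 and in HFD 3, which had the lowest and the highest macrophage marker sums of all libraries. The sum of 7 endothelial markers, all 7 tested, ran from 318 to 351 CPM in HFD_HDCA, from 194 to 402 CPM in HFD and from 370.4 to 417 CPM in ND. HFD 2 was the lowest library in that list too. Some single markers of these lists, chosen after their values were seen, varied with Cd74. Pearson r with Cd74 over the 9 libraries was 0.86 for the endothelial phosphatase gene Ptprb, 0.78 for the macrophage receptor gene Cd163, 0.77 for Stab2 and 0.69 for Kdr, while it ran from 0.01 to 0.44 over the other 12 macrophage markers and from 0.21 to 0.54 over the other 4 endothelial ones. Cd163 had 13.6 to 18.4 CPM in HFD_HDCA, 4.80 to 21.1 CPM in HFD and 28.5 to 29.9 CPM in ND. Ptprb had 68.1 to 78.6 CPM in HFD_HDCA, 45.4 to 100.4 CPM in HFD and 109.2 to 121.9 CPM in ND. In both genes, as in Cd74, every library from a high-fat diet was below every ND library in CPM. The other markers of these lists did not all go that way. In HFD_HDCA over ND the log2 fold change was positive for 11 and negative for 2 of the 13 macrophage markers. It was positive for 1 and negative for 6 of the 7 endothelial markers. In HFD over ND it was positive for 5 and negative for 8 macrophage markers, and for 1 and 6 endothelial ones.

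Of 9 dendritic cell markers 8 were tested, and their sum was 10.9 to 12.8 CPM in HFD_HDCA, 7.48 to 10.6 CPM in HFD and 8.02 to 9.94 CPM in ND. Of 7 B cell markers 4 were tested, and the sum over those in the tables was 5.35 to 8.36 CPM in HFD_HDCA, 2.42 to 4.69 CPM in HFD and 2.43 to 4.01 CPM in ND. The B cell sum was higher in each HFD_HDCA library than in every other library. Pearson r with Cd74 over the libraries ran from -0.76 to 0.66 over the 8 tested dendritic cell markers. Over the 4 tested B cell markers it ran from -0.24 to 0.10. Leukocyte markers (4 of 4 tested) summed to 42.3 to 59.5 CPM in HFD_HDCA, 24.3 to 83.2 CPM in HFD and 38.6 to 43.6 CPM in ND. Neutrophil markers reached 11.9 CPM in HFD_HDCA 1, against at most 2.87 CPM outside that group, while Mpo had at most 1 read in any library. EdgeR called 0 of the 38 tested markers in these 6 lists in each of the 3 comparisons. At an unadjusted p under 0.05 there were 2 higher and 2 lower in HFD over ND, 5 higher in HFD_HDCA over HFD, and 7 higher and 2 lower in HFD_HDCA over ND. Of all genes, 6.67% were higher and 4.83% lower, 11.6% higher, and 14.8% higher and 11.4% lower in the same order. DESeq2 called 1 of them, a macrophage marker lower in HFD over ND. Of 15 tested markers of T and NK cells, bile duct cells and stellate cells, edgeR also called 0. At an unadjusted p under 0.05 there were 1 higher and 1 lower in HFD over ND and 1 lower in HFD_HDCA over HFD. In HFD_HDCA over ND there were 2 higher and 2 lower. The shares of all genes were those just given, with 10.4% lower in HFD_HDCA over HFD. DESeq2 called 1, 0 and 2 of these 15 in the same order, and its calls were all lower. The part of cell numbers in the class II values was not tested.

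**Figure D4:**
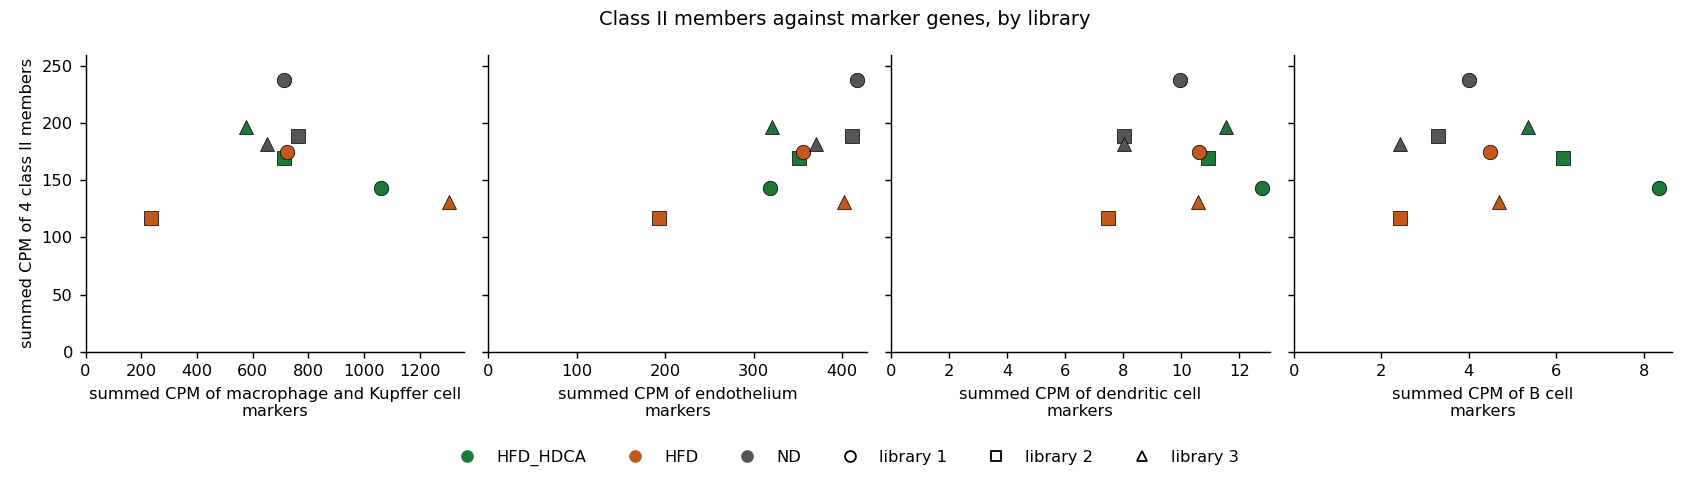
Summed CPM of the 4 class II genes (vertical axis) against the summed CPM of macrophage and Kupffer cell, endothelial, dendritic cell and B cell markers (horizontal axes, linear), one point per library. HFD 2 and HFD 3 have class II sums of 117 and 131 CPM at macrophage marker sums of 237 and 1307 CPM.

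A few other genes of the class I pathway rose with Tap1 in HFD_HDCA livers relative to ND livers. Of 21 listed genes (proteasome subunits, chaperones, the light chain, nonclassical heavy chains and Irf1) 20 were tested, and edgeR called 3 higher and none lower in HFD_HDCA over ND, where DESeq2 called 5, all higher. EdgeR called 6.47% of all genes in that comparison, and DESeq2 called a larger share of them. The 3 that edgeR called were H2-T23, which encodes the nonclassical molecule Qa-1 (log2 fold change 0.69 ± 0.14, adjusted p of 0.0184), the transcription factor gene Irf1 (0.68 ± 0.14, adjusted p of 0.0227) and H2-T10 (1.70 ± 0.37, adjusted p of 0.0262), all in edgeR. H2-T10 had 179 reads over the 3 HFD_HDCA libraries and 60 over the 3 ND libraries. On the authors' FPKM scale it differed less, at 4.78 ± 1.43 FPKM in HFD_HDCA livers and 3.0 ± 0.27 FPKM in ND livers (SD, n = 3 each). H2-T23 had 284, 219 and 202 CPM in HFD_HDCA livers, 170.3, 158 and 153 CPM in HFD livers, and 136, 154 and 149 CPM in ND livers. Its HFD_HDCA libraries were above all others. No listed gene was called in HFD_HDCA over HFD or in HFD over ND by edgeR, where 6 and 2 of the 20 had an unadjusted p under 0.05, all of them higher, beside 11.6% and 6.67% of all genes. DESeq2 called 1 and 0 in these comparisons. The list's median log2 fold change was 0.36 in HFD_HDCA over ND, 0.17 in HFD_HDCA over HFD and 0.09 in HFD over ND, beside medians of 0.03, -0.002 and 0.02 over all genes. The immunoproteasome genes Psmb8 and Psmb9, which cut peptides for class I, were highest in HFD_HDCA 1, at 67.1 and 29.3 CPM, against 30.9 and 34.5 CPM for Psmb8 and 12.4 and 16.7 CPM for Psmb9 in the other HFD_HDCA libraries. The light chain gene B2m had a log2 fold change of 0.13 ± 0.13 in HFD_HDCA over ND, with an adjusted p of 0.561 in edgeR. The count of 3 became 0 without ND 1, 0 without ND 2, 1 without ND 3, 2 without HFD_HDCA 1, 2 without HFD_HDCA 3 and 5 without HFD_HDCA 2. Calls over all genes also changed widely when a library was left out, so these counts are not particular to the list. The range over all genes is in the last section.

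The genes that load and control class II gave fewer reads. Of 20 listed genes 15 were tested, and in HFD_HDCA over ND edgeR called 3 of them higher and none lower, beside 6.47% of all genes called. They were Rfx5, a factor that binds the promoters of both classes (0.48 ± 0.12, adjusted p of 0.0429), H2-Ob, a chain of the peptide exchange inhibitor (1.51 ± 0.34, adjusted p of 0.0279), and the costimulatory receptor gene Cd40 (1.40 ± 0.36, adjusted p of 0.0473). Rfx5 had 13.1, 14.8 and 13.1 CPM in HFD_HDCA livers, 13.2, 14.04 and 13.5 CPM in HFD livers, and 8.90, 9.70 and 10.8 CPM in ND livers. H2-Ob and Cd40 had few reads, with 7 to 38 and 8 to 28 reads per library. Ciita, the regulator of class II, had a log2 fold change of 0.37 ± 0.34 in HFD_HDCA over ND and overlapping libraries. H2-DMa, which encodes a chain of the peptide exchange factor, had a log2 fold change of -0.65 ± 0.22 in HFD over ND (adjusted p of 0.249) and 0.76 ± 0.22 in HFD_HDCA over HFD (adjusted p of 0.0825), both in edgeR. Its libraries did not overlap in either comparison. H2-Ea-ps was at 0 in the counts and the FPKM of every library. The class I gene H2-Q7 was at 0 in every count file, but the authors' FPKM averaged 15.7 ± 5.80 in HFD_HDCA livers, 12.9 ± 2.64 in HFD livers and 7.42 ± 0.99 in ND livers (SD, n = 3 each), so that its 0 counts are not read as absence. In HFD_HDCA over HFD and in HFD over ND edgeR called 0 of the 15, where 3 (all higher) and 3 (2 higher, 1 lower) had an unadjusted p under 0.05 and DESeq2 called 1 and 0. The shares of all genes at that p were 11.6% higher in HFD_HDCA over HFD, and 6.67% higher and 4.83% lower in HFD over ND. The list's median was 0.28 in HFD_HDCA over ND, 0.27 in HFD_HDCA over HFD and 0.02 in HFD over ND. Its 3 calls in HFD_HDCA over ND became 0 without any 1 of the ND libraries, without HFD_HDCA 1 or without HFD_HDCA 3, 1 without HFD 2 or HFD 3, and 2 without HFD 1 or HFD_HDCA 2. Here too the calls over all genes changed when a library was left out, by the range given in the last section. The list's median in HFD_HDCA over ND without HFD_HDCA 1 was -0.04.

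Genes of the interferon gamma pathway, which raises both classes, were called most often in HFD_HDCA over ND, as were all genes (6.47%, against 3.40% in HFD_HDCA over HFD and 0.953% in HFD over ND). Of 20 listed genes 18 were tested, and 8 rose and 1 fell in HFD_HDCA over ND by edgeR, with a median log2 fold change of 0.64. The risen genes were the transcription factor genes Irf9 (0.83 ± 0.11, adjusted p of 0.00370) and Irf1, the immunity GTPase genes Iigp1 (0.88 ± 0.13, adjusted p of 0.00592), Igtp (1.10 ± 0.20, adjusted p of 0.0129), Gbp2 (0.72) and Gbp3 (0.99), the chemokine gene Cxcl10 (1.42 ± 0.28, adjusted p of 0.0163) and the receptor chain gene Ifngr2 (0.61). The gene that fell was Irf2, whose product can oppose Irf1 (-0.71 ± 0.16, adjusted p of 0.0278). Iigp1 had 709.6, 606 and 589 CPM in HFD_HDCA livers, 423, 436 and 355 CPM in HFD livers, and 331, 382 and 321 CPM in ND livers. It was also the single listed gene called in HFD_HDCA over HFD, at 0.65 ± 0.13 with an adjusted p of 0.0313 in edgeR, where DESeq2 called 2 higher and 1 lower. No listed gene was called by edgeR in that comparison without any 1 of the ND libraries, HFD 2, HFD 3 or HFD_HDCA 3. In HFD over ND edgeR called 0 of 18, 7 had an unadjusted p under 0.05, all higher (6.67% of all genes), and DESeq2 called 3. The median was 0.27 there and 0.30 in HFD_HDCA over HFD. Interferon gamma itself, Ifng, had 0 to 3 reads in each library and was not tested. Whether the listed genes followed interferon gamma or another signal was not tested either. The 9 calls became 3 without ND 1, 4 without ND 3 and 4 without HFD_HDCA 3, and lay between 6 and 9 without any 1 of the other libraries. Leaving out a library changed the calls over all genes as well, by the ranges given in the last section. Irf1 belongs to this list and to the class I list.

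**Figure D5:**
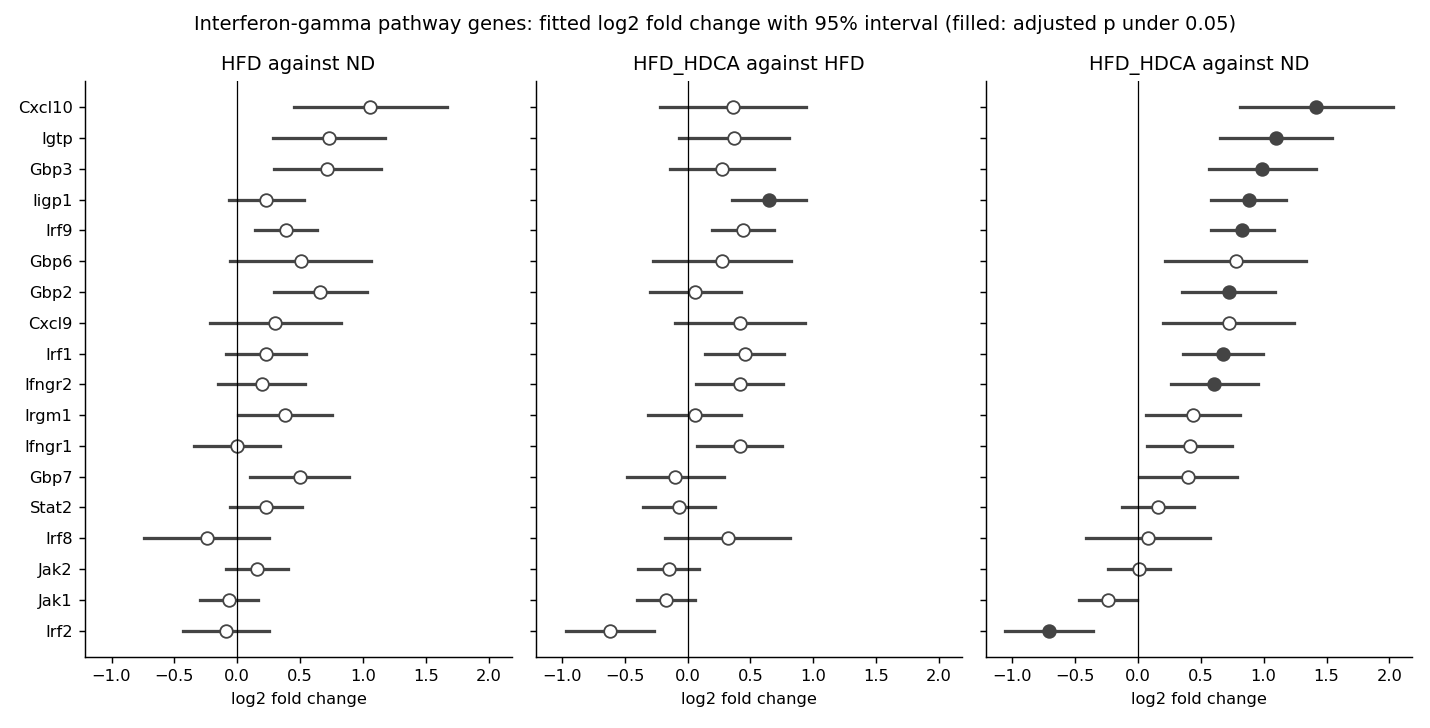
Fitted log2 fold change (horizontal axis) with 95% intervals of the 18 tested interferon gamma pathway genes in the 3 comparisons, ordered by their value in HFD_HDCA over ND. Filled points passed an adjusted p of 0.05, which were 9 genes in HFD_HDCA over ND, with Irf2 the lowest at -0.71, and Iigp1 in HFD_HDCA over HFD.

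Correlations across the 9 libraries were higher among the class II genes than among the class I genes. Pearson r of log2 CPM, given as a description since the points share libraries and diets, had a median of 0.88 over the 6 class II pairs (0.65 to 0.94). After the mean of each diet was removed it was 0.88 (0.71 to 0.93). Over the 15 class I pairs the median was 0.34 (0.01 to 0.70), and over the 24 pairs of a class I with a class II gene it was -0.13 (-0.66 to 0.18). With the diet means removed these were 0.37 (-0.06 to 0.81) and -0.13 (-0.71 to 0.76). The highest between the classes were then those of Nlrc5, at 0.76 with H2-Ab1, 0.71 with H2-Aa, 0.69 with H2-Eb1 and 0.55 with Cd74. H2-K1 and H2-D1 had the highest class I value, 0.70, with a Spearman rho of 0.23 and HFD_HDCA 1 highest in both genes, and H2-Aa and H2-Ab1 the highest class II value, 0.94. Of 10252 other genes, those most like H2-K1 over the 9 libraries were Cenpq (r of 0.949), Tmem176b (0.947), Tmem176a (0.934), Rfk (0.928), Col15a1 (0.905) and Slc25a4 (0.900). Those most like Cd74 were Arhgef15 (0.950), Inpp5a (0.944), Eif2c3 (0.940), Tnrc6a (0.938), Aff4 (0.930) and Slc12a5 (0.928). No other member of the class II set was among the 6 most like Cd74.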

How the data were processed

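Liver RNA of 9 wild-type mice was sequenced, with 3 libraries in each of the HFD_HDCA, HFD and ND groups, which were taken from the sample titles. Per the labels' protocols, total RNA was extracted with an RNeasy lipid kit and libraries were made with a TruSeq RNA kit. The authors deposited raw counts per gene, made with HTSeq per the names of the deposited files, whose word antisense names a strand setting that was not explained. They also deposited FPKM from Cufflinks, per the file headers. The submitters' processing notes list the mm10 build, and as tools Cufflinks 2.0.2 and TopHat 1.3.2, with no roles, and read length was not given in the sources used here.

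Tests were run on the deposited counts in edgeR 4.0.16 under R 4.3.3. The 5 rows for reads on no gene, 27.9 to 36.1% of the reads in a file, were left out. Genes were filtered with filterByExpr (minimum count 10), libraries were scaled by TMM, and all 9 libraries entered 1 quasi-likelihood model with robust estimation. CPM use the TMM-scaled library sizes. The two-sided p-values were adjusted by Benjamini-Hochberg over 12587 genes and called at 0.05. An exact permutation test of 3 against 3 libraries cannot go below p = 0.1. Scores and correlations used log2 CPM with a prior count of 3. The pipeline was tested on simulated counts. The alternatives were DESeq2 1.42.0, relative log expression factors, no filter, a fit of 2 groups, a replicate block, limma 3.58.1 on log2(FPKM + 0.1) and log2(FPKM + 1) for genes with a mean FPKM of at least 0.5, and libraries left out.

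The members, the lists and the alternatives were chosen with earlier results of these data known. All members are named; of each list, the called genes and otherwise up to 4 with the smallest p in a comparison were open to naming, and Psmb8, Psmb9, B2m, Ciita, Mpo, Ifng, H2-Q7, H2-Ea-ps, Ptprb, Cd163, Stab2 and Kdr were named besides, after their values were seen. Genes most like H2-K1 and Cd74 were the 6 with the highest r among tested genes averaging at least 2 CPM, without predicted (Gm), Rik and -ps loci. One gene of the interferon gamma list and 1 motif are not reported here.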

Additional observations from a re-analysis of the deposited data

How the results depend on the processing

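Of 510 member fold changes under alternative settings, none that was called lost its call or its sign, and 7 passed the threshold only under the alternative. The sign was the opposite in 44, all of uncalled results whose log2 fold change was at most 0.112 in size, and 2 of these moved by more than 1 SE. They were H2-K1 in HFD_HDCA over HFD, at -0.10 without HFD 1 and HFD_HDCA 1, and Nlrc5 in HFD_HDCA over ND, at 0.27 without ND 1. Moves of more than 1 SE without a change of sign are not counted here. An example was Cd74 in HFD_HDCA over HFD, at 0.10 ± 0.19 in the main fit and up to 0.43 in the alternatives. Where a setting changed a count below, the cause was not tested. Members called in HFD over ND numbered 0, 1 with DESeq2 and 3 without HFD 1 and HFD_HDCA 1 together. In HFD_HDCA over HFD they numbered 0, 2 without these libraries together, and 0 to 1 with any 1 library left out. Over all genes, HFD over ND had 120 calls, 377 with DESeq2, 576 without both libraries and 32 to 226 with 1 library left out. HFD_HDCA over HFD had 428 calls, 1076 with DESeq2, 134 from the 2 groups alone, 977 without both libraries and 127 to 672 with 1 left out. HFD_HDCA over ND had 815 calls, 1398 with DESeq2 and 196 to 1213 with 1 left out. A replicate block gave 82, 328 and 715 calls in the same comparisons, and 0, 0 and 1 member. Same-numbered libraries of different diets had correlated deviations of -0.149 to 0.153, with 1 of 9 over 0.1, so the numbers were not read as a pairing. With limma on FPKM (pseudocount 0.1 and 1), genes called higher and lower were 102 and 63 or 100 (66 lower) in HFD over ND, where edgeR on counts had 60 and 60. In HFD_HDCA over HFD they were 135 and 361 or 135 and 352, where edgeR had 210 and 218. On that scale the median of all genes shifted by 0.109 in HFD over ND and by -0.106 in HFD_HDCA over HFD (pseudocount 0.1). Depth limits the rare genes, such as Ifng, H2-Ob and Cd40, and not the members.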
